A study of Mus musculus with 27 samples.

Results

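Brain endothelial cells, the cells that line the blood vessels of the brain, were followed in single-nucleus RNA-seq of the hippocampus. Their nuclei were chosen by their own counts: a filtered nucleus was taken as endothelial when at least 3 of the genes Flt1, Cldn5, Ptprb, Mecom, Slco1a4, Adgrl4 and Pecam1 each had a UMI (1 captured RNA molecule) and when markers of neurons, oligodendrocytes and pericytes were at or near 0. This gate took 1221 of the 221281 filtered nuclei (0.552%) from 27 mice. Each mouse gave 11 to 152 endothelial nuclei, with a median of 41.

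Each mouse gave 1 library. The mice without the tau transgene were 5 Cgas+/+ (3 males and 2 females), 2 Cgas+/- (both male) and 2 Cgas-/- (both male), and each of these 3 Cgas genotypes was also studied with P301S, in 3 male and 3 female mice. P301S mice carry human tau with a dementia-linked mutation under the mouse Prnp promoter, which is active in neurons and in other cells, and Cgas encodes a sensor of cytosolic DNA. Labels gave genotype and sex, and neither age nor strain. The study's methods describe litters of adult mice from a cross of a P301S line with a Cgas-/- line. The study examined the role of cGAS in tauopathy and how reduced Cgas affects the response to it, and left the Cgas+/- and Cgas-/- mice without P301S, 2 of each, out of its comparisons.

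Brain endothelial cells form the blood-brain barrier. Tight junctions seal the paths between the cells, solute carriers bring glucose, amino acids and other nutrients across them, and ABC pumps return drugs and lipids to the blood. Wnt signals from neighbouring cells are known to maintain these properties. Endothelial cells also respond to interferon and to inflammatory cytokines, which induce antiviral genes, MHC class I molecules and, mainly in venules, adhesion molecules that capture leukocytes.

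Nothing in the counts of Cgas itself could check the deletion. The gene, listed as Mb21d1, had 14 UMIs over all endothelial nuclei, of which 2 were in Cgas-/- and 2 in P301S Cgas-/- mice. In nuclei that passed a microglia gate, it was at 25.8 ± 2.0 CPM (mean ± SD, n = 5) in Cgas+/+ and 21.9 ± 5.4 CPM (n = 2) in Cgas-/- mice, where CPM scales a gene's UMIs to all UMIs of the summed nuclei. Its level with P301S was 33.0 ± 11.4 CPM in Cgas+/+ mice, against 43.0 ± 6.3 CPM in Cgas-/- mice (n = 6 each). Whether the counted 3' reads lie in the deleted part of the gene was not given in the sources used here, so the groups carry the names of their labels. Sting1, listed as Tmem173, had 1 UMI in endothelial nuclei.

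The values that chose the nuclei are given here as a description. Flt1, a receptor for VEGF (chr5:147561604-147726011 in GRCm38, minus strand), had a UMI in 96.5% of endothelial nuclei and in 1.01% of the other filtered nuclei. Mecom, a transcription factor (chr3:29951296-30548008), was detected in 91.7%, and Slco1a4, a carrier of organic anions at the barrier (chr6:141805440-141856199), in 89.8%. Both were about as frequent in those gated nuclei that carried choroid plexus markers, as given below. Ptprb, a phosphatase that acts on the angiopoietin receptor (chr10:116275523-116389535), was detected in 87.9% and Adgrl4, an adhesion receptor (chr3:151437887-151545086), in 84.2%. Outside the gate, Adgrl4 was found in 0.254% of nuclei. Pecam1, an adhesion molecule between endothelial cells (chr11:106654217-106750628), was detected in 61.8%. Cldn5, the main claudin of barrier tight junctions and a gene with a short pre-mRNA (chr16:18776847-18778262), was detected in 45.4% of endothelial and 0.0972% of other nuclei. Endothelial nuclei were shallower than others in 26 of 27 mice, with a median of 1652 UMIs per nucleus over all mice, whereas the mice's medians for the other nuclei ranged from 1921 to 7603.5.

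The promoter of Flt1 is shown because this gene marks more of the nuclei than any other gate gene and because members of the ETS family, several of which were measured here, are known to bind its kind of sequence. RefSeq gives these 300 bases (chr5:147725962-147726261, GRCm38.p6, printed 5′ to 3′ along the minus strand, from 250 bases before to 50 after the start). Capitals mark the letters AGGAAG, the core of ETS sites, at positions -129 and -53 from the start.
Flt1: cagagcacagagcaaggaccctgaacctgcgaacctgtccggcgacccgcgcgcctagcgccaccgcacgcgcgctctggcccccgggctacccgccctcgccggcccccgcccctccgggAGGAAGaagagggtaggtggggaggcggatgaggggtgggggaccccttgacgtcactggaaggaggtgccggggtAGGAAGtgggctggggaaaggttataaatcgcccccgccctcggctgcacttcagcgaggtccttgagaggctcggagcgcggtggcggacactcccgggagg
The AGGAAG motif, searched on both strands, was in 35.4% of 32851 promoters of this length. Of the 22 identity genes listed below, 14 had a promoter in the table, and 11 of these 14 (78.6%) held the motif. A match describes letters and is no evidence of a bound site.

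Genes outside the gate bore on the label. Of 22 other genes known from endothelial cells, 21 were over 10-fold higher in endothelial nuclei than in the other filtered nuclei, and their summed level was 9107 CPM against 100.2 CPM. Nuclei of the microglia gate held 1271 CPM of these genes, of which Ets1, Fli1 and others are also genes of immune cells, and nuclei of a pericyte or smooth muscle gate held 537 CPM. Ctla2a, the remaining gene, was at 0 in all nuclei. Single genes gave the same picture. The VE-cadherin gene Cdh5 had a UMI in 28.3% of endothelial and 0.221% of other nuclei, and the angiopoietin receptor Tek in 65.8% and 2.28%. Tie1, its partner receptor, was detected in 25.9% and 0.0514%, and Erg, an ETS factor, in 46.4% and 0.811%. The label therefore stood on genes the gate had not used, although genes of the same cells are not independent of the gate and no test was made. For this and the later counts over 10-fold, the share of all genes over that cut is not given. Such counts therefore describe the lists alone.

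Among genes at 50 CPM or more, the ratio of the endothelial level to the level in other nuclei was highest for Sox17, a factor of arterial and barrier endothelium, at 4058. The next were 4930578C19Rik at 3986 and the gate gene Adgrl4 at 2667. Ly6c1 and Ly6a, surface antigens of mouse brain endothelium, stood at 2241 and 1262. The list of 15 also held the gate genes Cldn5 and Flt1, the receptor genes Robo4 and Tie1, the transcription factor genes Zfp366, Tbx1 and Gata2, and Cyyr1, Adgrf5 and Fmo2. Each of the 15 was detected in 26 or 27 of the 27 mice.

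The barrier programme was present in the same nuclei. The 23 solute carrier genes summed to 12431 CPM in endothelial nuclei and 534 CPM in others, and 18 of them were over 10-fold higher. They include Slco1a4, a gate gene, which the rule itself raised. Slc2a1, the glucose transporter of the barrier, was detected in 58.5% of endothelial and 4.72% of other nuclei, and Slco1c1, which carries thyroid hormone, in 75.5% and 11.05%. Mfsd2a, a carrier of lysolipids that is known to restrain transcytosis, was detected in 14.0% and 1.61%. Of 6 ABC pump genes 3 were over 10-fold higher, and Abcb1a (P-glycoprotein) led them, at 73.5% of endothelial and 0.571% of other nuclei. The ABC list summed to 3230 CPM and 345 CPM.

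Other lists were measured in the same way. Of 18 Wnt pathway genes, 11 were over 10-fold higher, with a sum of 4042 CPM against 380 CPM. Lef1, a nuclear effector of Wnt signals, was detected in 81.7% of endothelial nuclei and 2.87% of others, and Foxq1, a forkhead factor of brain endothelium, in 13.8% and 0.0718%. Of 14 junction genes, which include the gate genes Cldn5 and Pecam1, 9 were over 10-fold higher (5339 CPM against 709 CPM). Of 13 genes for receptors and vesicles of transcytosis, 5 were (6236 CPM against 783 CPM). Among them, Igf1r, the receptor for IGF1, was also found in 67.7% of other nuclei. Of 6 genes that respond to shear stress, 5 were over 10-fold higher, and they summed to 1040 CPM against 12.8 CPM, with Klf2 in 27.2% of endothelial and 0.2204% of other nuclei.

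Interferon and antigen presentation genes stood higher in endothelial nuclei than in the pool of other nuclei, and this was so in a comparison of levels that used no condition. The 55 interferon-stimulated genes summed to 2580 CPM in endothelial, 403 CPM in other, 2315 CPM in microglia-gated and 1055 CPM in pericyte or smooth muscle-gated nuclei. Of the 55, 28 were over 10-fold higher in endothelial than in other nuclei, a count given without the share of all genes over that cut. Sp100, a nuclear body protein, was detected in 39.8% of endothelial and 1.40% of other nuclei. The 14 genes of MHC class I presentation summed to 864 CPM, against 54.9 CPM in other and 562 CPM in microglia-gated nuclei. Oas3, Gbp4, Gbp6 and Igtp had no UMI in endothelial nuclei.

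**Figure D1:**
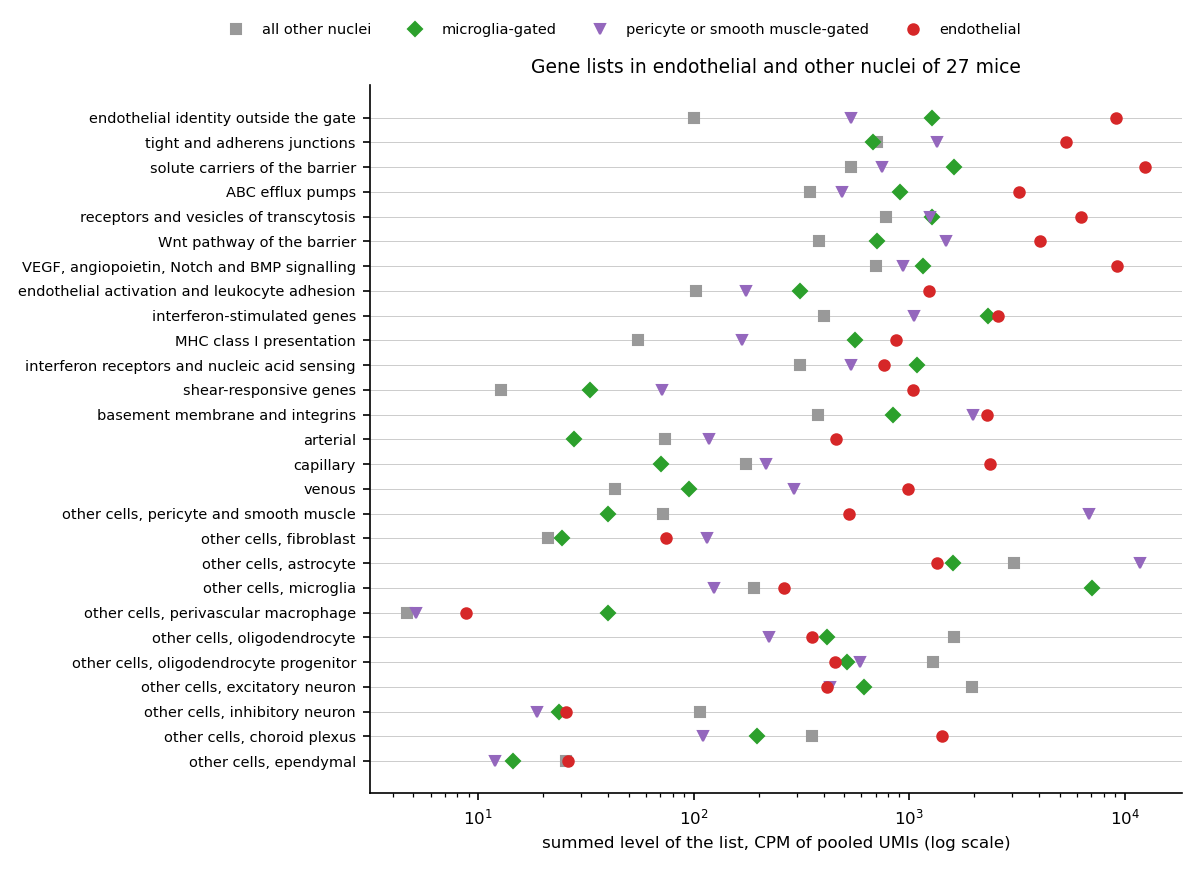
Summed level of each of 27 gene lists (CPM, log axis) over all mice in endothelial nuclei (red circles), all other filtered nuclei (grey squares), microglia-gated nuclei (green diamonds) and pericyte or smooth muscle-gated nuclei (purple triangles). The gate genes were used to choose the nuclei; outside the gate, the identity list stood at 9107 CPM in endothelial and 100.2 CPM in other nuclei, while astrocyte markers were at 1343 CPM in endothelial and 3051 CPM in other nuclei.

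RNA of other cells was measured beside these levels. Astrocyte markers (7 genes) summed to 1343 CPM in endothelial and 3051 CPM in other nuclei, ranged from 220 to 4197 CPM between mice, and at least 2 of them were detected in 241 endothelial nuclei (19.7%). Microglia markers (7 genes) summed to 262 CPM, against 7053 CPM in microglia-gated nuclei, and 56 endothelial nuclei (4.59%) had at least 2. Pericyte and smooth muscle markers (11 genes) summed to 526 CPM, against 6817 CPM in nuclei of that gate, and 101 endothelial nuclei (8.27%) had at least 2. Nuclei of the pericyte or smooth muscle gate carried still more RNA of astrocyte markers, as given below. Markers of oligodendrocyte progenitors summed to 452 CPM, of excitatory neurons to 417 CPM and of oligodendrocytes to 353 CPM, each below the level in other nuclei (1288, 1945 and 1619 CPM). Perivascular macrophage markers summed to 8.79 CPM and inhibitory neuron markers to 25.6 CPM. The lists of neurons, of oligodendrocytes and of pericytes include genes that the gate limits.

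Choroid plexus, an epithelium at the edge of the hippocampus, was the sharpest case at the border of the gate. Of 1943 nuclei with 2 gate genes that met every other condition, and so fell just outside, 1718 (88.4%) carried at least 2 of 5 choroid plexus markers, and the markers summed to 16726 CPM. Of the 1221 nuclei inside, 46 (3.77%) did, and 28 of these 46 had exactly 3 gate genes. Most nuclei lay far from this border: 89 (7.29%) had 3 of the 7 genes, 126 had 4, 295 had 5, 419 had 6 and 292 had all 7. The 46 nuclei had Flt1 in 63.0% and Ptprb in 50%, against 97.8% and 89.4% in the rest. Adgrl4, Pecam1 and Cldn5 were also less frequent in them. Mecom was in 91.3%, against 91.7%, and Slco1a4 in 91.3%, against 89.7%, so neither set the 46 nuclei apart. The 46 nuclei held 96.6% of the 2710 UMIs of Htr2c, a serotonin receptor gene of choroid plexus. Htr2c is among the 5 markers that chose these nuclei, so this follows in part from the choice. The choroid sum in endothelial nuclei varied from 0 to 10309 CPM between mice, with a median of 63.2 CPM, and libraries that stood apart in it were Cgas+/+ replicate 2, P301S Cgas+/- replicate 6 and P301S Cgas-/- replicate 4. Shares of nuclei and the medians of several lists are also given below without the 148 nuclei that carried at least 2 markers of choroid plexus, of pericytes and smooth muscle or of fibroblasts. P301S Cgas+/+ replicate 3 then kept 8 nuclei. It was left out of those medians, which needed 10 nuclei per mouse.

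Some barcodes recurred between libraries. Of 215041 distinct barcodes among filtered nuclei, 6129 were found in at least 2 libraries. The barcodes of 84 endothelial nuclei (6.88%) were also kept in another library, against 5.59% of all filtered nuclei, and 0 were endothelial in both.

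Endothelial nuclei differed by position along the vessel tree. A nucleus was assigned to a zone when at least 2 markers of an arterial (12 genes), capillary (7) or venous (9) list were detected, and more than of either other list. By this rule 598 nuclei (49.0%) were capillary, 156 (12.8%) venous and 102 (8.35%) arterial, and 365 (29.9%) were assigned to no zone. Unassigned nuclei were shallower, with a median of 1394 UMIs against 1729.5, 1750 and 1851.5 in capillary, arterial and venous nuclei.

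Genes outside the zone lists also differed between the zones, and are given as a description, since the zones were set from the same nuclei. Zone levels here and below pool the nuclei of all mice. Of the 102 arterial nuclei, Cgas+/+ replicate 5 gave 39 and P301S Cgas+/- replicate 3 gave 12. Of the 156 venous nuclei, the same mice gave 35 and 14. Arterial nuclei had 1579 CPM of Eln, which encodes the elastin of arterial walls, against 47.8 CPM in capillary and 269 CPM in venous nuclei. Capillary nuclei had 2430 CPM of Bsg, a partner protein of monocarboxylate carriers, against 569 CPM in arterial and 707 CPM in venous nuclei. They also led for Hmcn1, at 1902 CPM against 120 and 441 CPM, and for Rgs5, at 559 CPM against 128 and 28.1 CPM. Rgs5 is among the pericyte and smooth muscle markers. Venous nuclei had 387 CPM of Nrp2, a co-receptor for semaphorins and VEGF, against 85.6 and 93.3 CPM in arterial and capillary nuclei, and the gene was detected in 46.8% of venous nuclei. Enpp2 had its highest level in venous nuclei, 1603 CPM against 261 and 205 CPM. It was detected in 20.5% of venous but 24.5% of arterial nuclei. Barrier genes differed too. Slc7a5, a carrier of large neutral amino acids, was at 836 CPM in capillary, 309 CPM in venous and 51.3 CPM in arterial nuclei. Abcb1a was at 1208 CPM in capillary, 1198 CPM in venous and 492 CPM in arterial nuclei, and Lef1 at 1855, 2111 and 638 CPM in the same order.

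Several genes that appear below among the condition contrasts belong to the zone lists, so their place along the vessel tree was part of the rule. The interleukin-1 receptor gene Il1r1 was at 2203 CPM in venous, 137 CPM in capillary and 42.8 CPM in arterial nuclei. Vcam1, a leukocyte adhesion molecule, was at 264, 6.72 and 158 CPM in the same order, and Icam1, another, at 95.4, 14.9 and 4.28 CPM. Slc16a1, the carrier of lactate and ketones, was at 230 CPM in capillary nuclei and Vegfc, a lymphatic growth factor, at 565 CPM in arterial nuclei. The interferon gene Gbp7, which is on no zone list, was close to level, with 89.8 CPM in venous, 82.1 CPM in capillary and 59.9 CPM in arterial nuclei.

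The zone shares varied widely between mice. Venous nuclei made up 9.16% ± 8.89 (SD, n = 5) of the endothelial nuclei in Cgas+/+, 6.27% ± 3.99 (n = 2) in Cgas+/- and 3.93% ± 1.52 (n = 2) in Cgas-/-. Their share was 14.7% ± 8.18 in P301S Cgas+/+, 14.1% ± 9.05 in P301S Cgas+/- and 14.9% ± 9.65 in P301S Cgas-/- mice (n = 6 each). The P301S groups had the higher means, with ranges that overlapped those of the groups without it: 2.22% to 31.4% with P301S and 0% to 23.03% without. Without Cgas+/+ replicate 5, the mouse at 23.03%, the Cgas+/+ mean was 5.69% ± 5.02 (n = 4). A further count thinned each nucleus to 1000 UMIs and left out the 106 endothelial nuclei that had fewer. The venous means were then 5.47%, 4.21% and 4.31% without P301S and 9.79%, 12.8% and 12.01% with it, in the same order of Cgas genotypes. Without replicate 5, the thinned Cgas+/+ mean was 1.79%. Of the P301S Cgas-/- mice, replicate 5 was at 33.3% after thinning, and the others ran from 0% to 16.7%. Arterial nuclei made up 11.5% ± 8.64 in Cgas+/+, 6.48% ± 0.591 in Cgas+/- and 4.29% ± 6.06 in Cgas-/- mice. With P301S they made up 6.10% ± 2.84 in Cgas+/+, 7.198% ± 9.45 in Cgas+/- and 1.76% ± 1.48 in Cgas-/- mice. P301S Cgas+/- replicate 3 was at 25.5%, and the other mice of its group ran from 0% to 6.90%. Without Cgas+/+ replicate 5, at 25.7%, the Cgas+/+ mean was 7.95% ± 3.98 (n = 4). Thinned in the same way, the arterial means were 8.85% in Cgas+/+ (5.44% without replicate 5), 6.89% in P301S Cgas+/+, 4.39% in P301S Cgas+/- and 0.592% in P301S Cgas-/- mice. Thinned, P301S Cgas+/- replicate 3 was at 15.9%, with at most 5% in the other mice of its group. The P301S Cgas-/- mice ran from 0% to 1.89%. Zone shares were not tested.

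**Figure D2:**
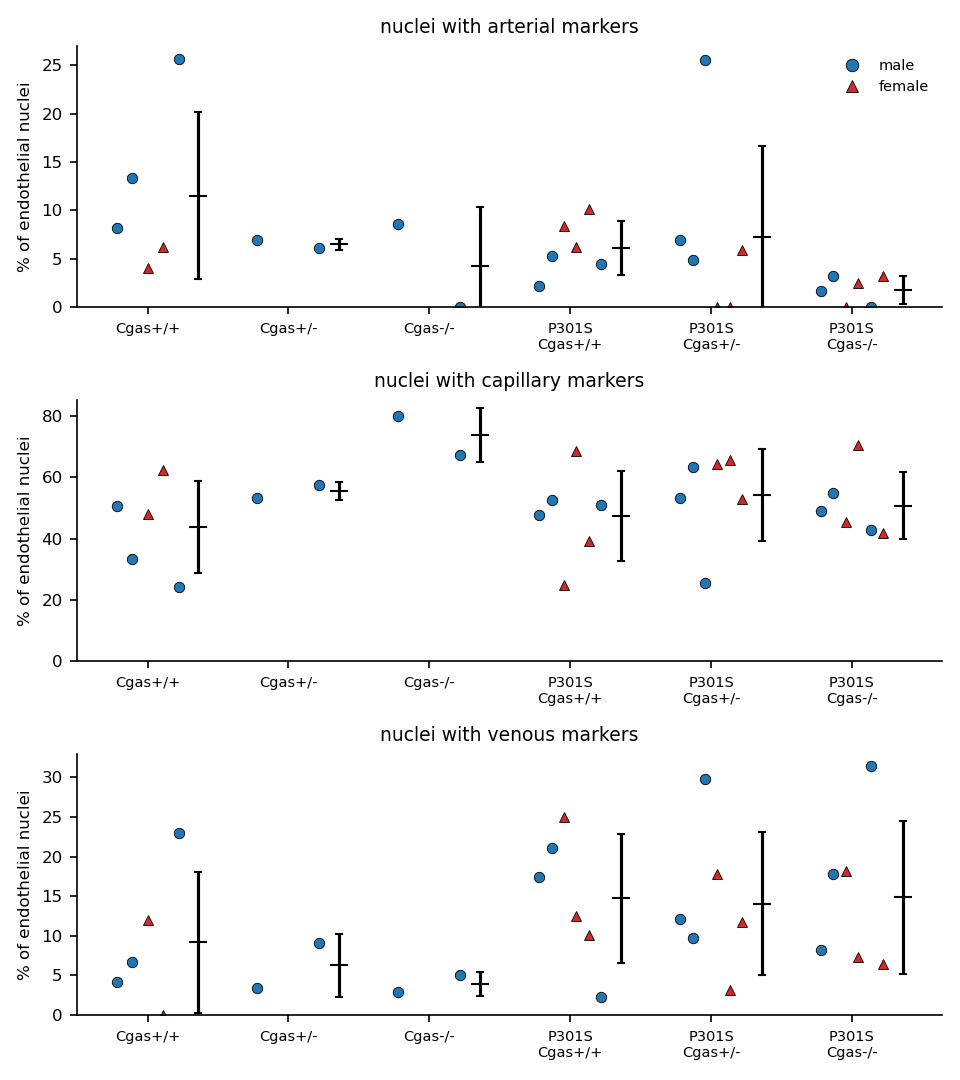
Share of each mouse's endothelial nuclei (percent) that was arterial, capillary or venous, by genotype group; points are mice (circles male, triangles female) and bars are the mean ± SD, cut at 0. Venous means were 14.1% to 14.9% in the 3 P301S groups and 3.93% to 9.16% in the 3 groups without P301S, and single mice with and without P301S overlapped.

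The share of endothelial nuclei among all filtered nuclei asks whether fewer or more of these nuclei were recovered in a group, which the sort, the loss of nuclei and the vessels of the tissue all enter. Single Cgas+/+ mice had 0.903%, 0.412%, 0.327%, 0.239% and 1.32%. Both Cgas+/- mice (0.724% and 0.923%) and both Cgas-/- mice (0.512% and 0.528%) lay inside that range. P301S Cgas+/+ mice ran from 0.126% through a median of 0.505% to 0.655%, P301S Cgas+/- mice from 0.325% through 0.520% to 0.656%, and P301S Cgas-/- mice from 0.177% through 0.528% to 0.859%. Both Cgas+/- mice lay above every Cgas-/-, P301S Cgas+/+ and P301S Cgas+/- mouse, and every other pair of groups overlapped.

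No difference of the share passed an exact two-sided permutation test over mice. P301S Cgas+/+ mice had a mean of 0.432% ± 0.208 (SD, n = 6), whereas Cgas+/+ mice had 0.641% ± 0.460 (n = 5), a difference of -0.209 percentage points (exact permutation p = 0.364, adjusted over 4 comparisons p = 0.539). P301S Cgas-/- mice were at 0.515% ± 0.2496 and differed from P301S Cgas+/+ by 0.0829 points (exact permutation p = 0.539, adjusted p = 0.539). P301S Cgas+/- mice were at 0.508% ± 0.127, with a difference of 0.0759 points (exact permutation p = 0.463, adjusted p = 0.539). Without P301S Cgas+/+ replicate 3, the differences of P301S Cgas-/- and P301S Cgas+/- were 0.0217 and 0.0147 points. That of P301S Cgas-/- was 0.0141 points without its replicate 2. All 18 P301S mice together had 0.485% ± 0.193 and the 9 others 0.655% ± 0.347 (difference -0.170 points, exact permutation p = 0.112, adjusted p = 0.450). One mouse, Cgas+/+ replicate 5, carried much of the contrasts with P301S: without it the first difference was -0.0380 points and the last -0.0858 points. Without the 148 nuclei marked for choroid plexus, pericytes and smooth muscle or fibroblasts, the first was -0.136 points (exact permutation p = 0.424) and the last -0.113 points (exact permutation p = 0.219). Thinning to 1000 UMIs left out nuclei that had fewer. These were 106 of the 1221 endothelial nuclei and, in P301S Cgas+/+ replicate 3, 2765 of 9507 filtered nuclei. The first and last differences were then -0.116 and -0.0921 points, and with likely doublets removed -0.0604 and -0.0960 points. As a share of nuclei with at most 1 neuronal UMI they were -0.303 and -0.231 points. Sex was unevenly spread, since all 4 mice of the small groups were male and males had the higher shares, and within sex the last difference was -0.0368 points (permutation p = 0.663). Among the 15 libraries whose file headers name software version 3.1.0, the first difference was -0.289 points (4 against 3 mice, exact permutation p = 0.514) and the last -0.231 points (12 against 3 mice, exact permutation p = 0.218).

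**Figure D3:**
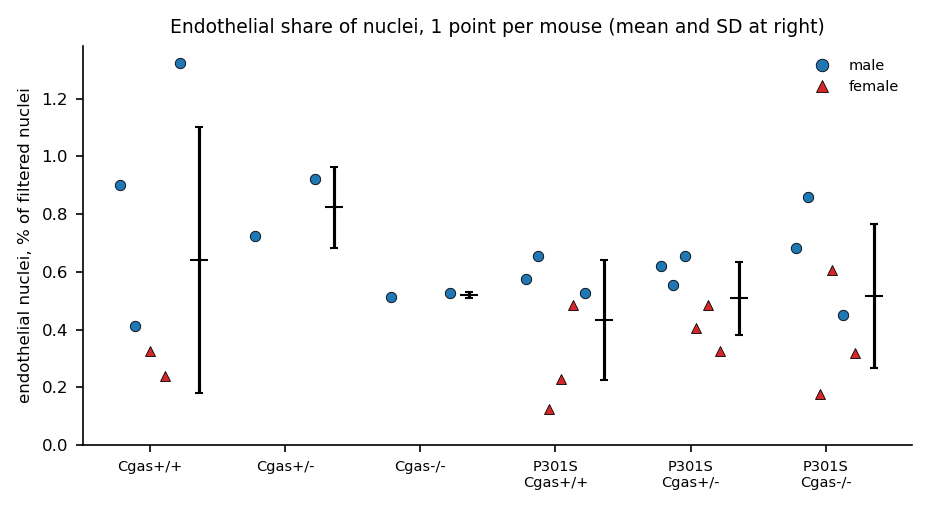
Endothelial nuclei as a percent of the filtered nuclei of each mouse, by genotype group; circles are males, triangles females, and bars the mean ± SD. The highest mouse, at 1.32%, was a Cgas+/+ male. Both Cgas+/- mice, at 0.724% and 0.923%, lay above every Cgas-/-, P301S Cgas+/+ and P301S Cgas+/- mouse, and the other pairs of groups overlapped.

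Gene levels were compared over mice after summing the UMIs of each mouse's endothelial nuclei, which came to 22841 to 301451 UMIs per mouse. A share depends on the number of nuclei and, because the gate needs detected genes, on their depth, which the thinned shares above hold alike. The sums below are scaled to the total of the endothelial nuclei. The tau contrast set P301S Cgas+/+ against Cgas+/+, and the deletion and heterozygous contrasts compared P301S Cgas-/- and P301S Cgas+/- mice, respectively, to P301S Cgas+/+ mice. A further contrast, called the P301S contrast over all 27 mice, set the mean of the 3 P301S groups against the mean of the 3 groups without, so that the groups of 2 mice weighed as much as the group of 5.

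No gene passed an adjusted p of 0.05 in any of these contrasts (edgeR quasi-likelihood test, Benjamini-Hochberg adjustment), so 0% of the genes were called. At an unadjusted p under 0.05, the tau contrast held 106 of 2856 tested genes (3.71%), the deletion contrast 127 (4.45%), the heterozygous contrast 60 (2.1%) and the P301S contrast over all 27 mice 151 of 3914 (3.86%). DESeq2 also called 0 genes in each, with 110, 136, 60 and 133 genes under an unadjusted 0.05. Data were simulated for the tau contrast with 200 genes changed at once and a spread that followed the trend over genes. There the edgeR test recovered 92 of 95 genes with a 4-fold change (96.8%) and 37 of 95 with a 2-fold change (38.9%). Changes of about 2-fold or less were thus often not detectable at this depth. Larger changes can also be missed in a gene of wider spread, or when few genes change. No gene named below rose or fell in the sense of this test, and each is given by its values.

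Interferon-stimulated genes, which encode antiviral proteins and GTPases, mostly had higher levels in P301S mice, and none passed the test. Their summed level in single mice was 1614, 1504, 2689, 1880 and 2229 CPM in Cgas+/+, 1947 and 1617 CPM in Cgas+/- and 2392 and 2609 CPM in Cgas-/- mice. P301S Cgas+/+ mice ran from 2405 CPM through a median of 2745 to 3555 CPM, P301S Cgas+/- mice from 1934 through 2781 to 3876 CPM and P301S Cgas-/- mice from 2110 through 2938 to 4536 CPM. Of the 18 P301S mice, 10 lay above all 9 mice without P301S, and 4 of those 9 lay below every P301S mouse. Such counts of mice, here and below, take no account of sex or header version. Every Cgas+/- and Cgas-/- mouse without P301S was a male with header version 3.0.2, whereas each P301S group held as many females as males. The summed levels with and without P301S overlapped between 1934 and 2689 CPM.

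By gene, 12 of the 55 interferon-stimulated genes passed the filter on low counts in the tau contrast, 11 of them with a positive log2 fold change, a median of 0.46 and 3 at an unadjusted p under 0.05, beside a median of -0.005 and 49.5% positive over all tested genes. In the P301S contrast over all 27 mice, all 18 tested were positive with a median of 0.48, beside 0.014 and 52.2% for all genes. Without the filter, 43 of 51 were positive in that contrast (median 0.51) and 36 of 51 in the tau contrast (median 0.33). With the choroid, pericyte, smooth muscle and fibroblast-marked nuclei removed, 16 of 17 were positive in the contrast over all mice (median 0.53), and with astrocyte and microglia-marked nuclei removed, 12 of 13 (median 0.61). The former fit lost P301S Cgas+/+ replicate 3, and the latter lost that mouse and P301S Cgas-/- replicate 3, each left with fewer than 10 nuclei. In the 15 libraries whose file header names software version 3.1.0, the tau contrast had 7 of 8 positive and a median of 0.19, against 0.46 in all libraries. The other version held 2 mice of each of these groups, all male, and was not fitted alone. For the alternatives here and below, shares over all tested genes are not given, so their counts describe the lists alone.

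Gbp7, an interferon-induced guanylate-binding protein gene (chr3:142530342-142550149), had the largest fold change of the list in the tau contrast. It was at 14.4, 51.0, 63.5, 55.3 and 49.8 CPM in Cgas+/+ mice and at 97.7, 142, 22.02, 160, 74.7 and 147 CPM in P301S Cgas+/+ mice. All but 1 of the P301S Cgas+/+ mice thus lay above every Cgas+/+ mouse. The log2 fold change was 1.23 ± 0.46 (SE) in the tau contrast (edgeR adjusted p = 0.999) and 0.88 ± 0.34 over all 27 mice (edgeR adjusted p = 1), where 14 of 18 P301S mice lay above all 9 without. These levels rest on 204 UMIs in all.

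Other interferon genes were near it. Herc6, a ligase of the ISG15 pathway (chr6:57581000-57664632), averaged 59.0 ± 37.8 CPM (SD, n = 5) in Cgas+/+ and 119 ± 58.3 CPM (n = 6) in P301S Cgas+/+ mice, which differed by 0.90 ± 0.37 (SE) on the log2 scale (edgeR adjusted p = 0.999). Parp14, an ADP-ribosyltransferase, averaged 39.0 ± 25.6 CPM and 86.0 ± 54.6 CPM, with a log2 fold change of 1.055 ± 0.51 (edgeR adjusted p = 0.999). In the P301S contrast over all 27 mice, Gbp3 had a log2 fold change of 1.03 ± 0.65 and Iigp1, an immunity-related GTPase, of 0.95 ± 0.51, with adjusted p = 1 for both.

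The promoter of Gbp7 is shown because interferon acts through the interferon-stimulated response element, whose letters it holds. RefSeq gives these bases (chr3:142530086-142530385, GRCm38.p6, plus strand, from 250 bases before to 50 after the start). Capitals mark 2 copies of GAAA with 2 bases of any kind between them, the form of this element searched here, which reads on the minus strand, with its first base at position -53 from the start.
Gbp7: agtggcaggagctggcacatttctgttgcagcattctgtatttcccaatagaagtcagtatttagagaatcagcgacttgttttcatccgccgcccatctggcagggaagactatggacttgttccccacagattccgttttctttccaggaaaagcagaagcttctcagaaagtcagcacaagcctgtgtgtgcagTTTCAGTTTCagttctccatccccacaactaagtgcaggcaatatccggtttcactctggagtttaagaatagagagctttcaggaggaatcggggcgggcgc
This motif was searched on both strands and was in 3.44% of the 32851 promoters. Of the 55 interferon-stimulated genes, 41 had a promoter in the table, and 20 of these (48.8%) held it. Both motifs printed here hold the letters GAA, so their matches can overlap. The list was chosen for its response to interferon, so this share describes the list and not these nuclei.

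A pair of measurements stands beside the interferon-stimulated genes. Microglia-gated nuclei of the same mice ran from 949 to 1433 CPM of the list without P301S and from 1226 to 4440 CPM with it, and 15 of 18 P301S mice lay above all 9 others. Microglia markers in endothelial nuclei averaged 251 ± 150 CPM in Cgas+/+ (n = 5), 246 and 235 CPM in Cgas+/- and Cgas-/- (n = 2 each), 212 ± 94.4 CPM in P301S Cgas+/+, 250 ± 120 CPM in P301S Cgas+/- and 231 ± 84.96 CPM in P301S Cgas-/- mice (n = 6 each). Without Cgas+/+ replicate 5, at 491 CPM, the Cgas+/+ mean was 191 ± 78.6 CPM (n = 4), below those of the P301S groups. Over all 27 mice, the median of the interferon-stimulated genes was 0.48. It was 0.61 without the nuclei that had at least 2 microglia or astrocyte markers. That fit tested fewer genes and left out P301S Cgas+/+ replicate 3 and P301S Cgas-/- replicate 3. The 2 medians therefore do not differ in those nuclei alone.

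**Figure D4:**
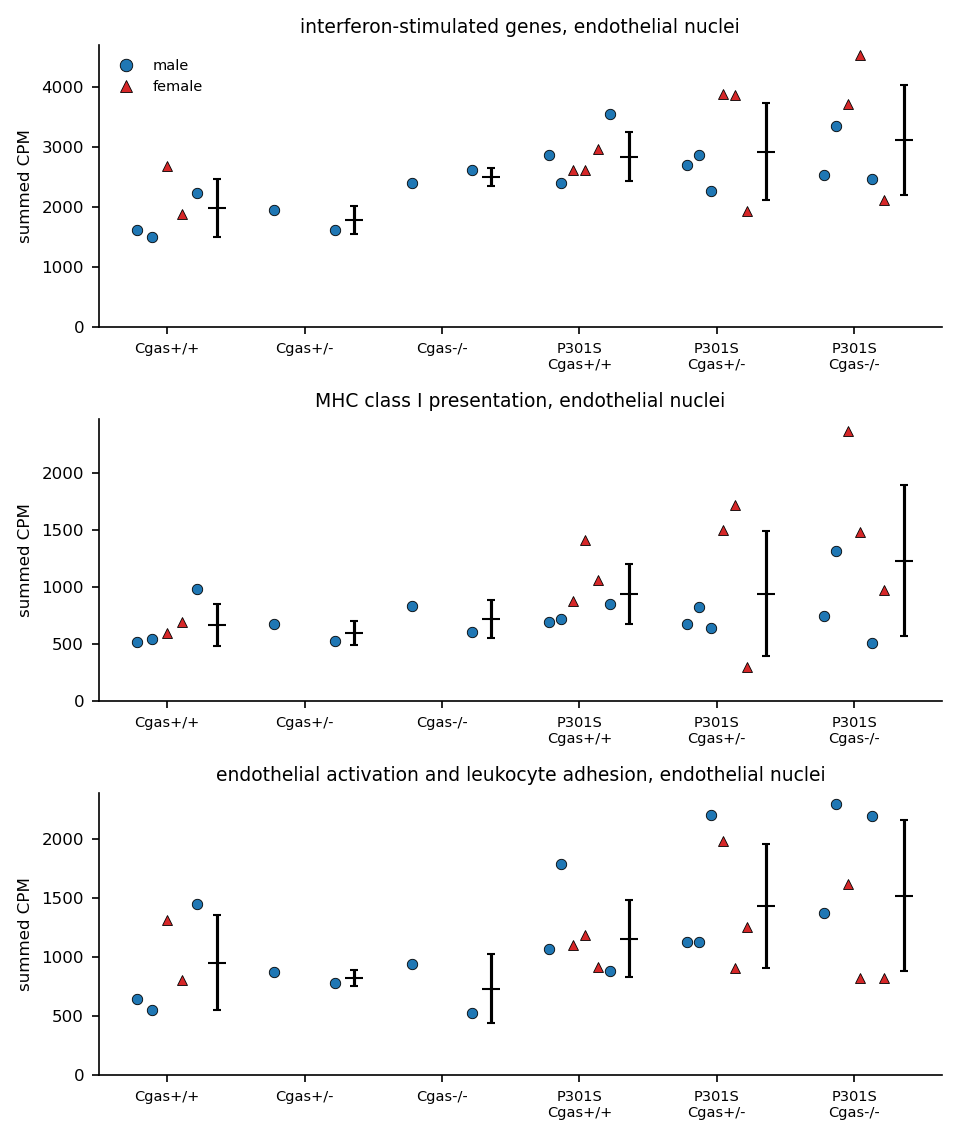
Summed level (CPM) of interferon-stimulated genes, MHC class I presentation genes and endothelial activation genes in the endothelial nuclei of each mouse, by genotype group; points are mice and bars the mean ± SD. Interferon-stimulated genes ran from 1504 to 2689 CPM in the 9 mice without P301S and from 1934 to 4536 CPM in the 18 with it.

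Endothelial activation genes, which include cytokine receptors and the adhesion molecules that leukocytes use, were few among the tested genes and mostly positive. The 22 genes summed to 648, 548, 1313, 802 and 1453 CPM in Cgas+/+ mice, 870 and 776 CPM in Cgas+/- and 941 and 524 CPM in Cgas-/- mice. In P301S Cgas+/+ mice the sum ran from 884 CPM through a median of 1082 to 1785 CPM, in P301S Cgas+/- mice from 905 through 1188 to 2202 CPM and in P301S Cgas-/- mice from 819 through 1494 to 2292 CPM. Of the 18 P301S mice, 6 lay above all others, and 5 of the 9 mice without P301S lay below every P301S mouse. By gene, 5 were tested over all 27 mice, all 5 positive with a median of 1.14, and in the tau contrast 2 of 3 were positive with a median of 0.47. Without the 148 marked nuclei, all 5 were positive over all mice (median 1.11) and all 3 in the tau contrast (median 0.17).

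Il1r1, the receptor of interleukin-1 (chr1:40225080-40317257), had the smallest p of any listed gene in that contrast. It was at 166, 229, 529, 277 and 468 CPM in Cgas+/+, 249 and 266 CPM in Cgas+/- and 340 and 111 CPM in Cgas-/- mice. The P301S groups ran from 320 through a median of 396 to 813 CPM in Cgas+/+, from 226 through 502 to 1009 CPM in Cgas+/- and from 202 through 363 to 1312 CPM in Cgas-/- mice. The log2 fold change over all 27 mice was 1.14 ± 0.32 (SE, edgeR adjusted p = 1), and 6 of 18 P301S mice lay above all 9 others. The tau contrast alone gave 0.47 ± 0.42 (edgeR adjusted p = 0.999).

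Vcam1 (chr3:116109949-116129688) had the largest fold change over all mice and few counts, 162 UMIs. It was at 72.0, 38.2, 21.2, 0 and 136 CPM in Cgas+/+ mice, at 16.6 and 7.18 CPM in Cgas+/-, at 0 and 11.1 CPM in Cgas-/-, and from 0 through a median of 44.3 to 242 CPM in P301S mice. The log2 fold change was 1.98 ± 0.72 (edgeR adjusted p = 1), and 2 of 18 P301S mice lay above all others. Because each group weighs the same in that contrast, the low values of each group of 2 males entered with as much weight as the 5 Cgas+/+ mice. The activation genes tested were Il1r1, Vcam1, Icam1, Vwf and Nfkbia, 4 of which are on the venous list, whose share of nuclei was 14.1% to 14.9% in the P301S group means and 3.93% to 9.16% in the others. The part of the venous share in these values was not tested.

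MHC class I presentation genes had a lower median. They summed to 519 to 982 CPM in the 9 mice without P301S, with a median of 602 CPM, and to 300 to 2364 CPM in the 18 with it, with a median of 868 CPM. Of the 18, 7 lay above all 9 others. H2-K1, a classical class I heavy chain gene, had a log2 fold change of 0.37 ± 0.27 over all 27 mice (edgeR adjusted p = 1) and 0.41 ± 0.36 in the tau contrast (edgeR adjusted p = 0.999). Of 4 tested in the tau contrast 2 were positive (median 0.03), and of 5 over all mice 4 were positive (median 0.31). Without the 148 marked nuclei the medians were -0.08 and 0.38. Among interferon receptors and nucleic acid sensors, 3 of 4 tested were positive in the tau contrast, with a median of 0.11.

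Barrier genes were mostly positive in the tau contrast. Of 19 tested solute carriers 18 had a positive log2 fold change, with a median of 0.45, and over all 27 mice 14 of 20 did, with a median of 0.14. Their sum averaged 10297 ± 2880 CPM (SD, n = 5) in Cgas+/+ and 12913 ± 2647 CPM (n = 6) in P301S Cgas+/+ mice, but 15090 ± 2547 CPM in the 2 Cgas-/- mice, so the groups without P301S spanned the P301S means. With the choroid, pericyte, smooth muscle and fibroblast-marked nuclei removed, 14 of 17 were positive in the tau contrast and the median was 0.30. Genes of the capillary list, which includes Slc16a1 and Mfsd2a, lay on the same side in that contrast (7 of 7 positive, median 0.52). Capillary nuclei made up 43.8% ± 15.02 of the endothelial nuclei in Cgas+/+ mice (48.6% ± 11.99 without replicate 5, at 24.3%) and 47.4% ± 14.6 in P301S Cgas+/+ mice. All 7 gate genes were positive in the tau contrast too (median 0.20). All 4 tested astrocyte markers (median -0.76) and both tested choroid plexus markers (-0.46) were negative there, but the pericyte and smooth muscle marker tested was positive (1.33). The part of the zone shares and of other cells' RNA in these values was not tested.

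Slc16a1 (chr3:104638668-104658462) had the largest fold change among them. It was at 101, 51.0, 42.4, 55.3 and 63.0 CPM in Cgas+/+ mice and ran from 58.6 CPM through a median of 207 to 396 CPM in P301S Cgas+/+ mice. The log2 fold change was 1.35 ± 0.48 (SE, edgeR adjusted p = 0.999), and 1.41 without Cgas+/+ replicate 5. The Cgas-/- mice without P301S were at 222 and 111 CPM, and over all 27 mice the fold change was 0.69 ± 0.33 (edgeR adjusted p = 1). Slc30a1, a zinc exporter, ran from 25.5 to 84.7 CPM without P301S and from 0 to 194 CPM with it, where 12 of 18 mice lay above all 9 others (log2 fold change 1.06 ± 0.41, edgeR adjusted p = 1). Abcc4, a pump of organic anions and the ABC gene with the smallest p, ran from 614 through 978 to 1673 CPM without P301S and from 947 through 1399 to 2070 CPM with it (0.47 ± 0.17, edgeR adjusted p = 1).

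The other barrier lists had medians nearer to those of all genes. Junction genes were positive in 10 of 11 in the tau contrast (median 0.17), Wnt pathway genes in 10 of 14 (0.16), transcytosis genes in 5 of 7 (0.09), ABC pumps in 4 of 5 (0.09), and VEGF, angiopoietin, Notch and BMP genes in 11 of 16 (0.07). The identity genes were positive in 15 of 19 (0.17). With choroid, pericyte, smooth muscle and fibroblast-marked nuclei removed, 8 of 19 were positive (median -0.05). That fit also lost P301S Cgas+/+ replicate 3, so the change cannot be assigned to the marked nuclei alone. Itm2a, a membrane protein of vessels, had the largest fold change of the identity list, 1.049 ± 0.46 (edgeR adjusted p = 0.999), and 911.6 CPM in P301S Cgas+/+ replicate 4 against at most 511 CPM in the other P301S Cgas+/+ mice. Fzd6, a Wnt receptor, was at 0.48 ± 0.22 (edgeR adjusted p = 0.999) and Notch1 at 0.62 ± 0.29 (edgeR adjusted p = 0.999).

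Basement membrane genes did not share a direction in the tau contrast, with 5 of 10 positive and a median of -0.04. Over all mice 6 of 10 were positive (median 0.11), and in the heterozygous contrast 6 of 10 (median 0.09). In the deletion contrast 9 of 10 were positive, with a median of 0.22 beside -0.02 for all genes, and none passed the test. Hspg2, which encodes the heparan sulfate proteoglycan perlecan, had a negative value in both contrasts with P301S. It ran from 64.7 CPM through 127 to 201 CPM in the 9 mice without P301S and from 0 through 83.0 to 154 CPM in the 18 with it, so the sets overlapped. The log2 fold change was -0.81 ± 0.39 in the tau contrast (edgeR adjusted p = 0.999) and -0.59 ± 0.28 over all mice (edgeR adjusted p = 1). Capillary list genes were positive in 7 of 7 in the tau contrast (median 0.52) and in 2 of 7 over all mice (median -0.09), where the small groups without P301S, with the highest capillary shares (55.5% and 73.8%), entered.

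The deletion contrast asked whether loss of Cgas moved these values among P301S mice. Interferon-stimulated genes split evenly, with 6 of 12 positive and a median of -0.03, beside -0.02 for all genes. Their sum averaged 2839 ± 403 CPM in P301S Cgas+/+ mice, against 3117 ± 919 CPM in P301S Cgas-/- and 2917 ± 807 CPM in P301S Cgas+/- mice (n = 6 each), with ranges that overlapped. Gbp7 had a log2 fold change of -0.48 ± 0.41 (edgeR adjusted p = 0.999), with a 95% interval of -1.28 to 0.33, and Herc6 one of 0.43 ± 0.32 (edgeR adjusted p = 0.999). The 4 MHC class I genes tested were positive, with a median of 0.47. These differences were not detectable at this depth, and that does not show that the genotypes were alike.

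A few listed genes had the smallest p of their lists in the deletion contrast. Lepr, the leptin receptor, was at 58.9 CPM through 90.1 to 128 CPM in P301S Cgas+/+ mice and at 0 through 38.2 to 73.4 CPM in P301S Cgas-/- mice (log2 fold change -1.46 ± 0.59, edgeR adjusted p = 0.997), on 175 UMIs in all groups. Vegfc was at 32.6, 235, 220, 0, 74.7 and 147 CPM in P301S Cgas+/+ mice and at 39.1, 35.3, 131, 39.0, 25.0 and 0 CPM in P301S Cgas-/- mice (-1.68 ± 0.71, edgeR adjusted p = 0.997). Vegfc is on the arterial list, and the arterial share was 6.10% and 1.76% in these groups. Itga1, an integrin that binds collagen, ran from 154 through 341 to 471 CPM and from 412 through 518 to 613 CPM (0.61 ± 0.24, edgeR adjusted p = 0.997). The ranges of the 2 groups overlapped for each of these genes.

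Markers of other cells differed in level between the groups of the deletion contrast, and none passed the test. All 4 astrocyte markers tested had positive values, with a median of 1.35 (0.44 without the 148 marked nuclei), and their sum averaged 732 ± 547 CPM in P301S Cgas+/+ and 1978 ± 1459 CPM in P301S Cgas-/- mice. Slc1a3, a glutamate transporter of astrocytes, had a log2 fold change of 1.996 ± 0.70 (edgeR adjusted p = 0.997) and Slc4a4, a bicarbonate carrier, of 1.42 ± 0.55 (edgeR adjusted p = 0.997). In the tau contrast the same 4 were negative, with a median of -0.76. Choroid plexus markers lay the other way in the deletion contrast, with both tested genes negative (median -2.79) and sums of 15.99 through a median of 2004 to 7970 CPM in P301S Cgas+/+ mice and 0 through 18.9 to 2254 CPM in P301S Cgas-/- mice. Both tested markers of oligodendrocyte progenitors were negative as well (median -0.90). Their part in the values of other genes was not tested.

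The heterozygous contrast held the fewest genes at an unadjusted p under 0.05. The median of all tested genes was -0.02. Interferon-stimulated genes were positive in 7 of 12 (median 0.09), solute carriers in 11 of 19 (0.09), Wnt pathway genes in 7 of 14 (-0.01) and activation genes in 3 of 3 (0.37). Among the listed genes of endothelial cells, Ifnar1, a chain of the type I interferon receptor, had a log2 fold change of 0.62 ± 0.31 (edgeR adjusted p = 1), and it was at 0.59 ± 0.31 in the deletion contrast (edgeR adjusted p = 0.999). Both contrasts share the P301S Cgas+/+ mice.

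**Figure D5:**
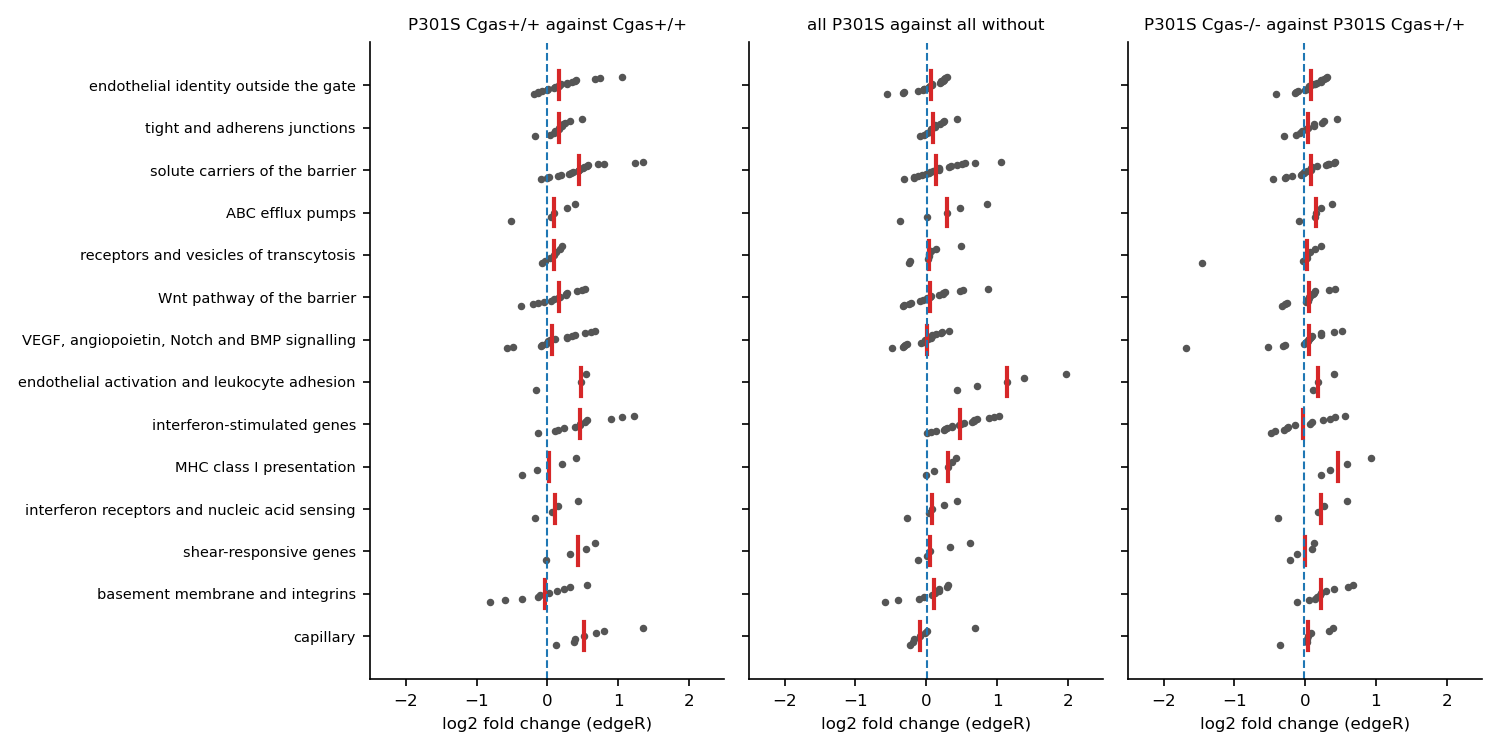
Log2 fold change of every tested gene of 14 lists (points) with the median of each list (red bar) in the tau contrast, the P301S contrast over all 27 mice and the deletion contrast. Interferon-stimulated genes had a median of 0.46 in the tau contrast, 0.48 over all mice and -0.03 in the deletion contrast; no point passed the adjusted test.

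The tau effect was also compared between endothelial and microglia-gated nuclei of the same 11 Cgas+/+ and P301S Cgas+/+ mice, with mouse as a block, to ask which genes responded differently in the 2 kinds of nuclei. Of 7877 genes tested, 0 were called (edgeR, smallest adjusted p = 0.108), and 329 (4.18%) had an unadjusted p under 0.05. DESeq2 was not run for this comparison. Cd74, the invariant chain of MHC class II, had a difference of -6.20 ± 1.17 (log2, endothelial minus microglia-gated, edgeR adjusted p = 0.108) and Csf1, a growth factor of microglia, one of -3.06 ± 0.61 (adjusted p = 0.122). H2-K1 was at -1.77 ± 0.45 (adjusted p = 0.432). Cd74 and Csf1 did not pass the filter on low counts in endothelial nuclei alone, and so entered through microglia-gated counts. Of 35 interferon-stimulated genes tested, 29 had a lower effect in endothelial nuclei (median -0.61, beside 0.03 for all genes), and 9 of the 35 were at an unadjusted p under 0.05. Of these 35, 23 did not pass the filter on low counts in endothelial nuclei alone and so entered through microglia-gated counts. Among the 12 that did pass, 10 had the lower effect (median -0.52), and among the 23, 19 had (median -0.695). The list is high in microglia-gated nuclei, so these counts are a description.

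Endothelial genes lay on the other side of that comparison. Of 19 identity genes 17 had the higher effect in endothelial nuclei (median 1.12), and Slc16a1 was at 2.11 ± 0.52 (edgeR adjusted p = 0.432). Such genes have few counts in microglia-gated nuclei, and several of the gate genes are held down there by the gate itself, so their differences are a description. In the comparison with pericyte or smooth muscle-gated nuclei, 0 of 3612 genes were called (edgeR, smallest adjusted p = 0.252), with 257 (7.12%) at an unadjusted p under 0.05, and all 12 tested interferon-stimulated genes had a lower effect in endothelial nuclei (median -1.22, beside -0.04 for all genes). Trim30a, an interferon-induced ligase gene, was at -3.90 ± 0.96 (adjusted p = 0.425). The nuclei of that gate carried 11799 CPM of astrocyte markers, whose tau effect was lower in endothelial nuclei for 6 of 6 genes (median -1.56), and the part of this RNA in the comparison was not tested.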

How the data were processed

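Nuclei of frozen hippocampi had been sorted by DAPI and profiled with 10x Genomics 3' v3 chemistry, 1 library per mouse. Per the labels and methods, the authors counted pre-mRNA reads on mm10 with Cell Ranger (3.1.0 in the submitters' notes, which also name Seurat 3.0), and deposited unscaled UMI counts for each gene in each barcode called as a nucleus. File headers name 3.0.2 in 12 libraries, all male, and 3.1.0 in 15, with all 11 females. Total counts were 46091490 to 79484316 UMIs per library. The files held 241938 barcodes, and the filter required 200 to 4000 genes with no more than 5% of UMIs mitochondrial.

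Endothelial nuclei had at least 3 of 7 gate genes and at most 1 UMI each of Slc17a7+Gad1+Gad2, Mog+Mag and Pdgfrb+Abcc9. The members and gene lists were chosen with earlier results of these data known. Doublets were left in; removing the highest Scrublet scores (Scanpy 1.11.5, 0.8% per 1000 barcodes), which took 167 endothelial nuclei (13.7%) and left 1 of 25 in Cgas+/+ replicate 3 and 3 of 34 in P301S Cgas+/- replicate 6, was an alternative. Levels are CPM of the summed nuclei. UMIs were summed per mouse, since nuclei of 1 mouse are not replicates (the study tested nuclei), and tested with edgeR 4.0.16 (R 4.3.3, TMM, filterByExpr, robust quasi-likelihood test, sex as covariate, Benjamini-Hochberg adjusted p under 0.05). DESeq2 1.42.0 was an alternative. A mouse with fewer than 10 endothelial nuclei was left out of a fit. All 27 passed in the main fits, and some alternatives that removed nuclei lost mice. The 3 contrasts against P301S Cgas+/+ or Cgas+/+ used 23 mice, as in the study, and the contrast over all mice 27. Scripts ran in Python 3.11.15 (NumPy 2.4.6, SciPy 1.17.1, matplotlib 3.10.9) and were tested on simulated data. In the comparison with microglia-gated nuclei, 160 of 200 genes with a 4-fold change (80%) were recovered. These 200 had many UMIs in both kinds of nuclei and were simulated with a fixed spread. The 80% thus does not cover genes with few counts in either kind.

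Genes named were, per list and contrast, the tested members of largest fold change (up to 3), the gate genes, the 15 of highest endothelial ratio and the cGAS and STING genes. Others (genes of smallest p, genes given for detection in nuclei, zone genes, Trim30a in the comparison with pericytes, and genes with few or contrary values) were chosen after their values were seen. Replicate numbers follow accession order. Positions come from GENCODE vM21 (GRCm38, the assembly of mm10) and promoters from RefSeq (GRCm38.p6). The 95% interval of a fold change comes from edgeR and its SE, and so covers the spread between mice. Alternatives were another normalization, no filter on low counts, other gates, depth, doublets, marked nuclei, sex, header version and each mouse left out.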

Additional observations from a re-analysis of the deposited data

Results flagged for a closer look

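In groups of 5 or 6 mice, a single mouse stood apart from the rest, by Dixon's ratio of its gap to the range, in 20 of 124 pairs of a group and a measure. Chance gives about 1 in 20 for normally distributed values, which low sums of counts need not be, and the lists share nuclei. The number flagged is thus no evidence of an excess. A summed level that rested on 3 UMIs or fewer was not flagged. Values below are summed levels in endothelial nuclei unless a share is named.

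Markers of other cells made up 12 of the 20. Choroid plexus markers stood apart in Cgas+/+ replicate 2 (10309 CPM), P301S Cgas+/- replicate 6 (5985 CPM) and P301S Cgas-/- replicate 4 (2254 CPM), and the last 2 of these mice also stood apart in ependymal markers (100.03 and 39.0 CPM). Fibroblast markers did so in Cgas+/+ replicate 5 (464 CPM) and P301S Cgas+/- replicate 3 (132 CPM), and perivascular macrophage markers in Cgas+/+ replicate 5 (59.7 CPM). Pericyte and smooth muscle markers stood apart in P301S Cgas+/+ replicate 4 (1807 CPM) and astrocyte markers in P301S Cgas+/+ replicate 5 (1785 CPM). Oligodendrocyte progenitor markers did in P301S Cgas-/- replicate 1 (714 CPM), and inhibitory neuron markers in Cgas+/+ replicate 3 (84.7 CPM).

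Among endothelial lists, P301S Cgas+/+ replicate 2 stood apart in activation genes (1785 CPM) and venous genes (1449 CPM), and P301S Cgas+/+ replicate 4 in capillary genes (5629 CPM). Arterial genes were high in Cgas+/+ replicate 5 (1334 CPM), the mouse with the highest endothelial share. Basement membrane genes were low in P301S Cgas+/+ replicate 3 (1629 CPM) and high in P301S Cgas+/- replicate 5 (3735 CPM). In P301S Cgas+/- replicate 3, arterial and capillary nuclei each made up 25.5% of the endothelial nuclei, above and below the other 5 mice of its group.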

How the results depend on the processing

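No paired analysis was possible because the labels give no replicate numbers that could pair mice of different genotypes, and the numbers used here follow accession order only. Of 143 gene counts recomputed for the 4 condition contrasts, 141 were 0. The tau contrast gave 2 genes with no filter on low counts (Myh11 and Nnat, both lower in P301S Cgas+/+) and 2 in the header version 3.1.0 libraries alone (Unc5d and Lingo2, both lower, an alternative chosen after seeing the data). The comparison of the tau effect with microglia-gated nuclei gave 25 genes without the filter and 0 to 1 with each mouse left out (Cd74 without Cgas+/+ replicate 1 or 2, Csf1 without P301S Cgas+/+ replicate 4). The comparison with pericyte or smooth muscle-gated nuclei gave 17 and 0 to 1 (Hs6st3 without P301S Cgas+/+ replicate 2). The cause was not tested, beyond the number of genes entered.

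The differences in share kept their direction and missed an adjusted p of 0.05 in all 98 alternatives. They ranged from -0.309 to -0.0380 points in the tau contrast, from 0.0141 to 0.151 in the deletion contrast, from 0.0147 to 0.148 in the heterozygous contrast and from -0.231 to -0.0368 over all mice. Without Cgas+/+ replicate 4, the last had an unadjusted exact permutation p of 0.0394 and an adjusted p of 0.158. The 23 fold changes followed through the alternatives (19 genes, chosen for an unadjusted p under 0.05) kept their direction in all 768 values, and none passed the adjusted threshold. Most alternatives left out 1 mouse of the same data. A kept direction was therefore likely from this choice in advance, and adds no support for these fold changes. Their sizes moved: in log2 units, Slc4a4 ranged from 0.42 to 2.20 and Itga1 from 0.25 to 0.75 in the deletion contrast, Fzd6 from 0.13 to 0.65 in the tau contrast and Vcam1 from 1.66 to 3.81 over all mice. Depth limits all of this: 6 mice gave fewer than 30 endothelial nuclei, and the median SE of a log2 fold change was 0.27 to 0.33 in the 4 contrasts.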

Other observations

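A difference by sex was noticed in the shares and chosen after the data were seen. Endothelial nuclei made up 0.682% ± 0.229 (SD, n = 16, from 0.412% to 1.32%) of the filtered nuclei in males and 0.338% ± 0.146 (n = 11, from 0.126% to 0.605%) in females, a difference of 0.343 percentage points (exact permutation p = 6.53e-05). With nuclei of at least 1000 UMIs thinned to that number, the means were 0.616% and 0.326% (exact permutation p = 0.000244). All 12 libraries with header version 3.0.2 were male. Within version 3.1.0, 4 males had 0.739% ± 0.399 and the 11 females 0.338% ± 0.146 (difference 0.401 points, exact permutation p = 0.00586, and p = 0.0147 after thinning). Without Cgas+/+ replicate 5, at 1.32%, the 3 remaining males of that version had 0.544% ± 0.104, a difference of 0.206 points (exact permutation p = 0.04396, and 0.169 points with p = 0.104 after thinning), while over both versions the difference was 0.3002 points (exact permutation p = 4.45e-05). The share of pericyte or smooth muscle-gated nuclei was also higher in males, 0.817% against 0.518% (exact permutation p = 0.00451), and within version 3.1.0 it was 0.656% against 0.518% (exact permutation p = 0.241). Nuclei of that gate carried more RNA of astrocyte markers than of pericyte and smooth muscle markers, so this share is not of vascular nuclei alone.

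In the 23-mouse fit, 5 of 2856 genes (0.175%) differed between the sexes in endothelial nuclei (edgeR, adjusted p under 0.05). Xist, the non-coding RNA of the inactive X, was lower in males, and the Y-linked genes Uty and Eif2s3y were higher. The other 2 were Parvb, an adaptor of integrin signals, with a log2 difference (males minus females) of -0.82 ± 0.16 (adjusted p = 0.0125), and Nr1d2, a nuclear receptor of the circadian clock, with 0.85 ± 0.17 (adjusted p = 0.0169). With header version as a block in the same 23 mice, the differences were -0.80 ± 0.23 for Parvb and 0.82 ± 0.22 for Nr1d2, and neither passed (edgeR adjusted p = 0.295 and 0.254). That fit called 6 genes, among them Gm2163, higher in males by 2.09 ± 0.32 (adjusted p = 0.000683), which without the block was at 1.49 ± 0.33 (adjusted p = 0.0527).

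Genes outside every list had the smallest p in each of the 4 contrasts, and none passed the adjusted test. In the deletion contrast, Rapgef3, an exchange factor that responds to cyclic AMP, had a log2 fold change of 0.98 ± 0.25 (edgeR adjusted p = 0.997) and Zdhhc18 of 1.24 ± 0.33. Over all 27 mice, Gm2163, the gene that also differed by sex above, had a log2 fold change of 1.41 ± 0.35 and Fmo2, a flavin monooxygenase, of 1.22 ± 0.33 (edgeR adjusted p = 1 for both). Fmo2 was also among the 15 genes of highest endothelial ratio.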
